A study of Mus musculus with 48 samples.

Results

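Cth, Cbs, Ahcy, Mat1a, Gnmt, Bhmt, Bhmt2, Csad and Cdo1 encode liver enzymes of the methionine cycle and of the route from homocysteine to cysteine and taurine. They were chosen by name, and each was taken as the probe set that carries its symbol alone and has the highest mean over all arrays. All 9 had such a probe set and passed the filter on dim probe sets, so they made up 9 of 16926 genes tested and 9 of 22180 genes with a single-symbol probe set. Cth was listed because it was known to be higher, and Csad because it was known to be lower, at larger protein shares in these data, so the direction of those 2 genes is a description and not independent evidence. The rest of the 9 genes, the gene lists and the tests were also chosen with earlier results of these data known. Their calls, ranks and counts are therefore not independent evidence either.

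The liver clears most dietary methionine. Methionine adenosyltransferase (Mat1a) makes S-adenosylmethionine, the methyl donor; glycine N-methyltransferase (Gnmt) spends surplus methyl groups on glycine; and S-adenosylhomocysteine hydrolase (Ahcy) then releases homocysteine. Homocysteine either takes a methyl group back from betaine through Bhmt, or from S-methylmethionine through Bhmt2, or is drawn into transsulfuration by cystathionine β-synthase (Cbs) and cystathionine γ-lyase (Cth), which yield cysteine. Cysteine dioxygenase (Cdo1) oxidises cysteine, and cysteine sulfinic acid decarboxylase (Csad) commits the product to hypotaurine and taurine, which the liver joins to bile acids. Supply of sulfur amino acids is known to alter the abundance or activity of several of these enzymes.

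Expression was measured in livers of 48 mice on Affymetrix arrays, with 1 array per mouse, and values are log2 expression. The mice ate freely from 3 weeks of age and were culled at 15 months; diets are named by the energy shares of their protein, carbohydrate and fat, in percent. Protein gave 5% of energy in 10 mice (compositions 5/20/75, 5/48/48 and 5/75/20), 14% in 9 (14/29/57, 14/57/29), 23% in 9 (23/38/38, 23/65/12), 33% in 9 (33/20/47, 33/47/20), 42% in 5 (42/29/29) and 60% in 6 (60/20/20). There were 29 mice on high, 14 on medium and 5 on low energy diets, which made 20 combinations of composition and energy level with 1 to 4 mice each. Every mouse at 5% protein was on a high energy diet, and the low energy mice were on 23/38/38, 42/29/29 and 60/20/20. Both sexes entered the study and 1 mouse was taken from a cage, but the labels used here give neither the sex of a mouse nor its strain, and no chow-fed group was analysed here.

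RefSeq promoter windows of GRCm38.p6 were matched by symbol for 6 of the 9 genes, while Cth, Mat1a and Cdo1 were named only. The windows of Gnmt and Ahcy, which rose with dietary protein, and of Csad, which fell, are shown 5′ to 3′ for the bases that lie before the annotated gene. All 3 are on the minus strand, and capitals mark a GC box (GGGCGG read on either strand).
Ahcy, chr2:155074498-155074747, minus strand: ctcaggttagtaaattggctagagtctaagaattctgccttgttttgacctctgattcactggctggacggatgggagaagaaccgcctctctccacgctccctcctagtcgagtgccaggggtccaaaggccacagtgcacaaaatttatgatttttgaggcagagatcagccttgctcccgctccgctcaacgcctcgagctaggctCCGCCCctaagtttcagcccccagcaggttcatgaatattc
Gnmt, chr17:46729212-46729415, minus strand: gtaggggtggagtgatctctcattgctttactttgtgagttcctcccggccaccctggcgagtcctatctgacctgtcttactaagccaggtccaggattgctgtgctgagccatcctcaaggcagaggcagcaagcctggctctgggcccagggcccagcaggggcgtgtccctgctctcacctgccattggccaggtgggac
Csad, chr15:102205053-102205302, minus strand: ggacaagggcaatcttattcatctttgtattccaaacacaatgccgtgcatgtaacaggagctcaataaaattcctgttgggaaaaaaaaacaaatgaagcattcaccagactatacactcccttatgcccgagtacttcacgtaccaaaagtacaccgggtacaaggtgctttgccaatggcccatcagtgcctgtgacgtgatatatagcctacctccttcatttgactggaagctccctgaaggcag
The search covered the 250 bases before each start on both strands for the amino acid response element core TGATGNAA, the antioxidant response element core TGACNNNGC, the E-box CACGTG and the GC box GGGCGG. These letters were present in 3.45%, 10.2%, 6.02% and 32.7% of 32851 promoters of that length, in the same order. In the windows above, the single match was the GC box of Ahcy, 41 bases before the start. Csad had a second annotated start whose window held a GC box 72 bases before it. Among the other matched genes, Cbs held an E-box 229 bases before its start and GC boxes 88 and 33 bases before it, Bhmt2 held GC boxes 155 and 40 bases before its start, and Bhmt held no match. A match is a description of letters and not a site of binding.

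Some features of the arrays touch the results below. The interquartile range of an array's values was widest at 5% protein, at 3.48 ± 0.13 (SD, n = 10), with a mean of 3.30 at 14%. From 23% up the means lay close together, at 3.19, 3.17 and 3.21 at 23%, 33% and 42%. At 60% it was 3.16 ± 0.20 (SD, n = 6). The only medium energy 14/29/57 mouse had the lowest Cbs, Mat1a, Bhmt2 and Cdo1 values of all 48 mice. Y-linked genes lay above Xist in 6 of the 10 mice on 5% protein and 5 of the 9 on 14%. They did so in 3 of the 9 mice on 23%, 5 of the 9 on 33%, 1 of the 5 on 42% and 4 of the 6 on 60%. Results are therefore also given with the interquartile range as a term and without that mouse. As a check of the tissue, the 5 hepatocyte markers had gene means from 11.61 to 12.90.

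Dietary protein was compared first, as a slope in log2 units for each 10 points of energy that protein took over evenly from the other macronutrients. Cth, Gnmt and Ahcy rose and Csad fell, so that transcripts for the steps that spend methyl groups, free homocysteine and release cysteine were higher and the transcript for the step that commits cysteine to taurine was lower. The limma fit called 4 of the 9 genes, 3 higher and 1 lower, at an adjusted p under 0.05; it called 7.01% of the 16926 genes, 3.37% higher and 3.65% lower. The median slope of the 9 genes was 0.07 and that of all genes tested was -0.0019. Cth and Csad were listed for directions already known in these data, so this count and this median are descriptions and not independent evidence. Mat1a, Cbs, Bhmt, Bhmt2 and Cdo1 did not pass the threshold.

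**Figure D1:**
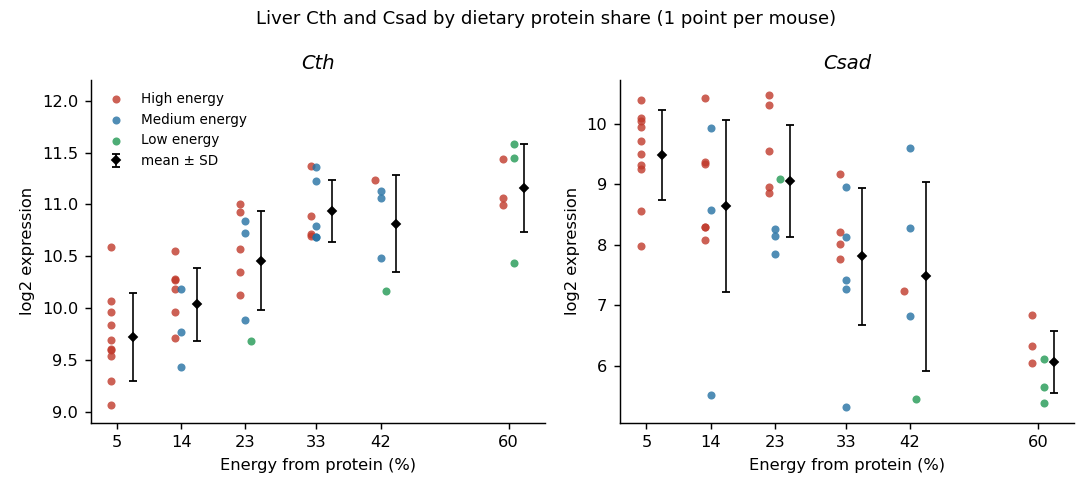
Log2 expression of Cth (left) and Csad (right) in each of 48 mice against the percent of energy from protein, coloured by energy level, with diamonds and bars for the mean ± SD at each protein share. Mean Cth went from 9.73 at 5% to 11.16 at 60% protein, and mean Csad from 9.48 to 6.06.

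Transsulfuration holds 2 of the enzymes, Cbs, which condenses homocysteine with serine, and Cth, which splits the product into cysteine. Cth at 5% protein ran from 9.07 to 10.59 with a median of 9.65, and at 14% from 9.43 to 10.55 with a median of 10.18. At 23% it ran from 9.69 to 11.003 with a median of 10.57, and at 33% from 10.68 to 11.37 with a median of 10.79. All 9 mice at 33% protein thus lay above all 10 at 5%. At 42% the values were 11.24 (high energy), 11.13, 11.06 and 10.48 (medium) and 10.16 (low). At 60% they were 11.06, 10.99 and 11.44 on high and 10.43, 11.45 and 11.58 on low energy. One low energy mouse at 60% lay below the highest mouse at 5%, so the 2 ends of the range overlapped. The group means were 9.73, 10.04, 10.46, 10.94, 10.81 and 11.16 from 5% to 60%, with SDs from 0.30 to 0.47, and neighbouring protein shares overlapped throughout.

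The slope of Cth was 0.33 ± 0.04 (SE; limma adjusted p = 3.92e-07), and Cth ranked 1 of 16926 genes by the size of its moderated statistic. Its mean at 60% was 2.70-fold that at 5%. On high energy, which held every mouse at 5%, the means were 9.73 at 5% and 11.16 at 60%. The slope, a straight line adjusted for energy level and for carbohydrate against fat, comes to 3.47-fold over these 55 points. The diet model held 64.2% of the variance of Cth over the 48 mice. Mice on the same fat share showed the gradient directly: on 20% fat, high energy mice had 9.84, 10.59, 9.60 and 9.96 at 5% protein, 10.69 and 10.71 at 33%, and 11.06, 10.99 and 11.44 at 60%. On 20% carbohydrate, high energy mice had 9.54 and 9.61 at 5% protein and 10.89 and 11.37 at 33%.

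Cbs showed no such gradient. Its values ran from 10.12 to 10.47 at 5% protein and from 9.87 to 10.76 at 60%, and its slope was 0.04 ± 0.04 (SE; limma adjusted p = 0.514), with a 95% confidence interval from -0.04 to 0.13. The medium energy 14/29/57 mouse was at 7.81, where every other mouse was at 9.50 or above, and without it the slope of Cbs was 0.0044 ± 0.02 (SE; limma adjusted p = 0.919). The diet model held 4.81% of the variance of Cbs.

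In the methionine cycle, Gnmt and Ahcy rose and Mat1a did not pass. Gnmt at 5% protein ran from 10.08 to 11.39 with a median of 10.86, the lowest of the 6 protein shares. Its median was 11.34 at 14%, 11.53 at 23% and 11.71 at 33%. At 42% the values were 11.95 (high energy), 11.92, 11.31 and 11.57 (medium) and 11.46 (low), and at 60% they were 11.57, 11.57 and 12.13 on high and 11.32, 12.16 and 11.95 on low energy. Every mouse at 33% protein or more lay above 9 of the 10 mice at 5%, and the highest mouse at 5%, at 11.39, lay inside their range. The slope of Gnmt was 0.21 ± 0.04 (SE; limma adjusted p = 0.000241), rank 23, and its mean at 60% was 2.12-fold that at 5%.

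Ahcy at 5% protein ran from 7.84 to 8.64 with a median of 8.12, and at 14% from 7.97 to 8.67 with a median of 8.32. Its median was 8.52 at 23% and 8.57 at 33%. At 42% the values were 8.45 (high energy), 8.61, 8.29 and 8.63 (medium) and 8.65 (low). At 60% they were 8.95, 9.01 and 9.14 on high and 8.34, 9.01 and 8.99 on low energy. Of the 6 mice at 60%, 1 low energy mouse alone lay inside the range of the mice at 5%. The slope of Ahcy was 0.14 ± 0.02 (SE; limma adjusted p = 0.000153), rank 19, and its mean at 60% was 1.66-fold that at 5%.

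The Ahcy value rests on a probe set whose identity carries a limit. Its number falls between probe sets of genes on chromosome 16, while RefSeq places Ahcy on chromosome 2; whether it reads the gene or a near-identical copy was not tested. A dimmer probe set with the same single symbol is numbered between genes of chromosome 2. It had means of 4.13 ± 0.29 (SD, n = 10) at 5% and 4.82 ± 0.36 (SD, n = 6) at 60% protein, and in place of the brighter one its slope was 0.14 ± 0.03 (SE; limma adjusted p = 0.00515). Both probe sets thus rose.

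Mat1a, the liver form of the enzyme that opens the cycle, ran from 12.34 to 12.67 at 5% and from 12.32 to 12.67 at 60% protein. Its slope was 0.01 ± 0.02 (SE; limma adjusted p = 0.768), with a 95% confidence interval from -0.03 to 0.06. The highest mean was at 5% (12.50 ± 0.11, SD, n = 10) and the lowest at 14% (12.19 ± 0.32, SD, n = 9), where the single medium energy 14/29/57 mouse stood at 11.45.

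**Figure D2:**
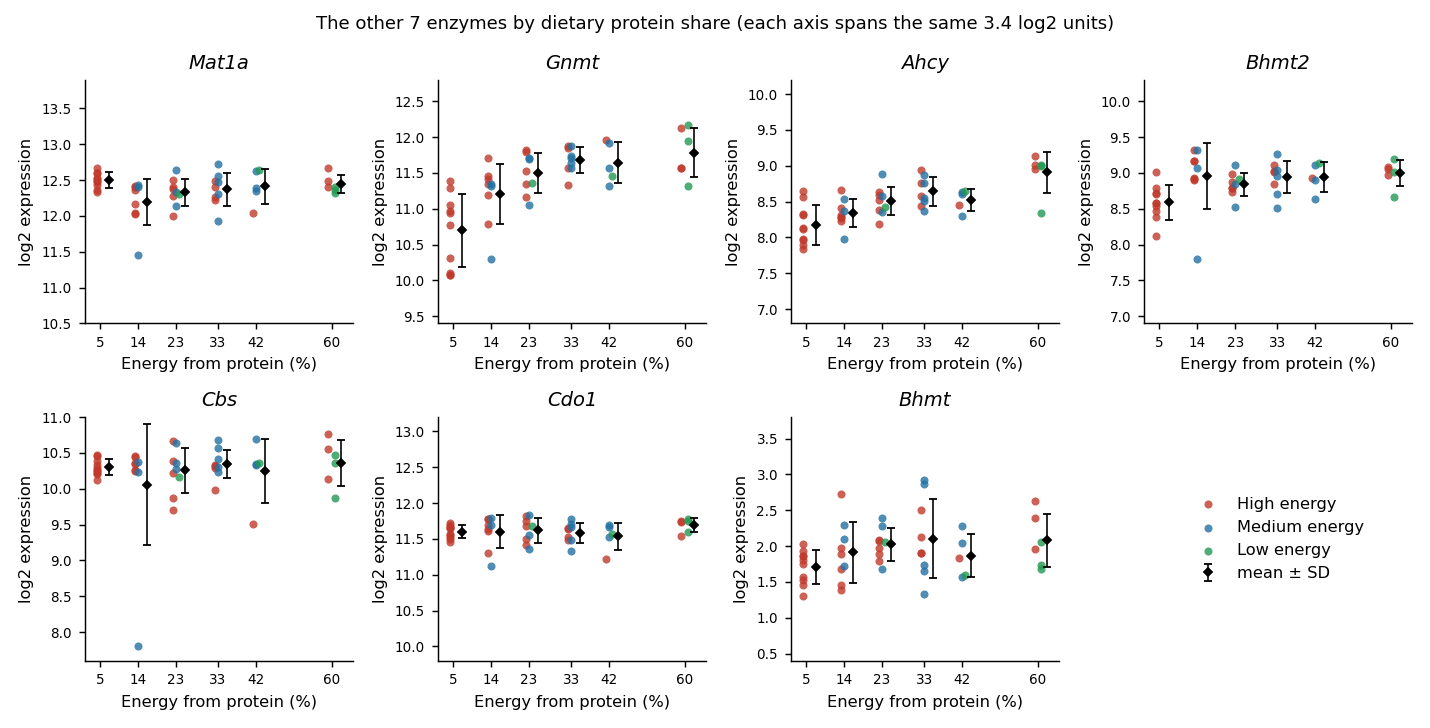
Log2 expression of Mat1a, Gnmt, Ahcy, Bhmt2, Cbs, Cdo1 and Bhmt in each of 48 mice against the percent of energy from protein, coloured by energy level, with mean ± SD at each protein share and axes of equal span. Gnmt and Ahcy climb from 5% protein, the means of Mat1a, Cbs and Cdo1 stay within the spread of the mice, and 1 medium energy mouse at 14% protein lies far below the rest for Cbs.

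Neither homocysteine methyltransferase, Bhmt2 or Bhmt, passed in the fit to 48 mice. Bhmt2 ran from 8.12 to 9.01 at 5% protein and from 8.66 to 9.19 at 60%, with a slope of 0.07 ± 0.03 (SE; limma adjusted p = 0.114). Its means were 8.59 at 5% and between 8.84 and 8.996 at the 5 larger shares, so the gap lay between the lowest share and the rest. Bhmt had a slope of 0.08 ± 0.03 (SE; limma adjusted p = 0.135), but its probe set was dim in all mice, from 1.30 to 2.93, and its mean of 1.94 was at the 30.6th percentile of the genes tested. Bhmt is known as an abundant liver enzyme, and whether this probe set measures it was not tested. Each gene passed under 1 of 17 other settings: Bhmt2 in the fit on the log2 of the protein share (0.13 for a doubling, limma adjusted p = 0.0181, with 21.6% of all genes called), and Bhmt on high energy diets alone (0.11, limma adjusted p = 0.0456, with 4.71% called).

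Of the enzymes that carry cysteine to taurine, Csad fell and Cdo1 did not pass. Csad at 5% protein ran from 7.98 to 10.39 with a median of 9.60. At 14% it ran from 5.52 to 10.42 with a median of 8.57, at 23% from 7.85 to 10.47 with a median of 8.96, and at 33% from 5.32 to 9.17 with a median of 8.02. Up to 33% protein the groups overlapped widely. At 42% the values were 7.23 (high energy), 6.83, 9.60 and 8.28 (medium) and 5.45 (low). At 60% they were 6.33, 6.05 and 6.84 on high and 6.12, 5.39 and 5.64 on low energy. All 6 mice at 60% lay below all 10 at 5%, and Csad was the 1 gene of the 9 whose mice at these ends did not overlap, where 0.874% of all genes tested had no overlap (0.585% lower at 60%).

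Csad fell by 0.48 ± 0.10 (SE; limma adjusted p = 0.00195) for 10 points of protein, rank 64 of 16926, and its mean at 60% was 10.7-fold lower than at 5%. All mice at 5% were on high energy while 3 of the 6 at 60% were on low energy. Among high energy mice the means were 9.48 at 5% and 6.41 at 60%. The slope, a straight line adjusted for energy level and for carbohydrate against fat, comes to 6.23-fold lower over the same 55 points. Csad also had the largest residual SD of the 9 around the diet model, 1.04 against 0.40 for Cth and 0.16 for Cdo1. The diet model held 55.5% of its variance. On 20% carbohydrate, high energy mice had 9.25 and 9.94 at 5% protein and 7.77 and 9.17 at 33%. On 20% fat they had 10.05, 7.98, 8.55 and 10.39 at 5%, 8.22 and 8.02 at 33%, and 6.33, 6.05 and 6.84 at 60%. Most of the distance on this fat share therefore lay between 33% and 60% for Csad, whereas for Cth it lay between 5% and 33%; this contrast of shapes was not tested.

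Cdo1, which makes the substrate of Csad, held close to 1 level. It ran from 11.46 to 11.73 at 5% and from 11.53 to 11.77 at 60% protein, with a slope of 0.01 ± 0.02 (SE; limma adjusted p = 0.865) and a 95% confidence interval from -0.03 to 0.04. The interval of Csad ran from -0.67 to -0.29, and the difference between the slopes of the 2 genes was not tested.

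The limits on these protein results concern the lowest share and the array range. With the interquartile range as a term, limma called the same 4 genes (Cth 0.26, Gnmt 0.14, Ahcy 0.13 and Csad -0.49), while 0.668% of all genes passed. Without the 10 mice at 5% protein, Cth alone passed (0.29, limma adjusted p = 0.0037, with 0.0827% of all genes called), while Csad (-0.53, adjusted p = 0.0721), Ahcy (0.12, adjusted p = 0.0754) and Gnmt (0.13, adjusted p = 0.302) did not. Without the medium energy 14/29/57 mouse the same 4 genes were called and 7.62% of all genes, with Csad at -0.53 (limma adjusted p = 0.000154). In fits that left out each of the 48 mice in turn, the slopes ran from 0.31 to 0.35 for Cth, 0.20 to 0.24 for Gnmt, 0.13 to 0.14 for Ahcy and -0.53 to -0.43 for Csad, and each was called in 48 of 48 fits.

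**Figure D3:**
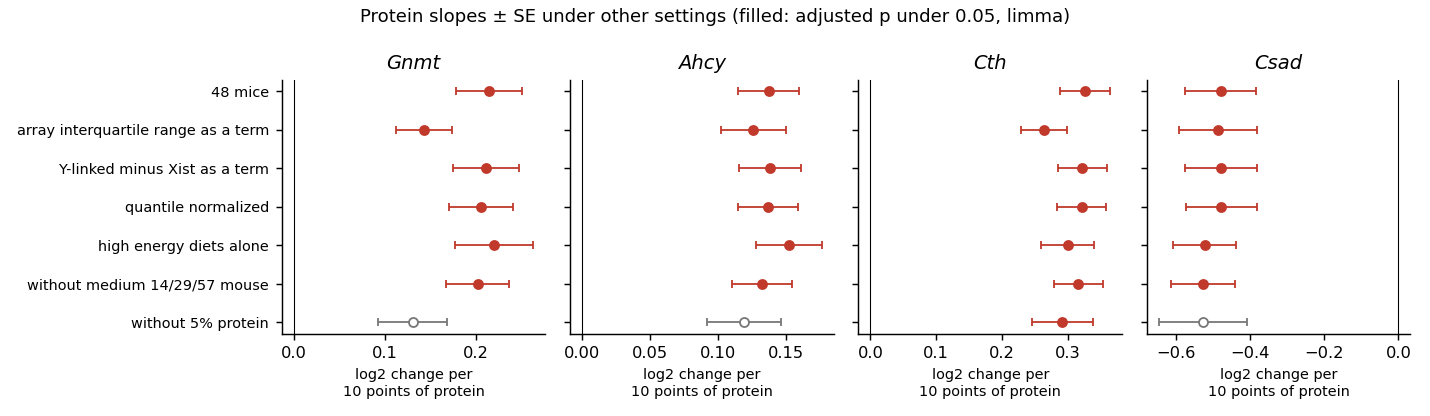
Protein slopes ± SE of Gnmt, Ahcy, Cth and Csad (log2 change per 10 points of energy) in the fit to 48 mice and under 6 other settings, with filled points where the limma adjusted p was under 0.05. Each slope keeps its sign throughout, and without the mice at 5% protein the Cth point alone is filled.

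Protein can replace carbohydrate or fat, and the same model gives both exchanges. Cth, Gnmt, Ahcy and Csad were called in each, in the direction seen above. Against carbohydrate the slopes were 0.30 for Cth (limma adjusted p = 1.18e-05), 0.17 for Gnmt (0.0179), 0.12 for Ahcy (0.00697) and -0.55 for Csad (0.00381), where 1.55% of all genes passed (0.827% higher, 0.727% lower). With the interquartile range as a term, Cth (0.25, limma adjusted p = 0.000249) and Csad (-0.55, 0.0143) passed, and Gnmt (0.10, 0.263) and Ahcy (0.11, 0.0606) did not.

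Against fat the slopes were 0.35 for Cth (limma adjusted p = 6.87e-06), 0.26 for Gnmt (0.000243), 0.15 for Ahcy (0.000454) and -0.41 for Csad (0.0274), where 4.25% of all genes passed (1.93% higher, 2.32% lower). The Csad call for fat was lost with the interquartile range as a term (-0.42, limma adjusted p = 0.0999). It was also lost when 1 of 3 mice was left out: either high energy 5/20/75 mouse (-0.41 without replicate 1, adjusted p = 0.0602, and -0.38 without replicate 2, adjusted p = 0.0836) or the low energy 23/38/38 mouse (-0.36, adjusted p = 0.0576).

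**Figure D4:**
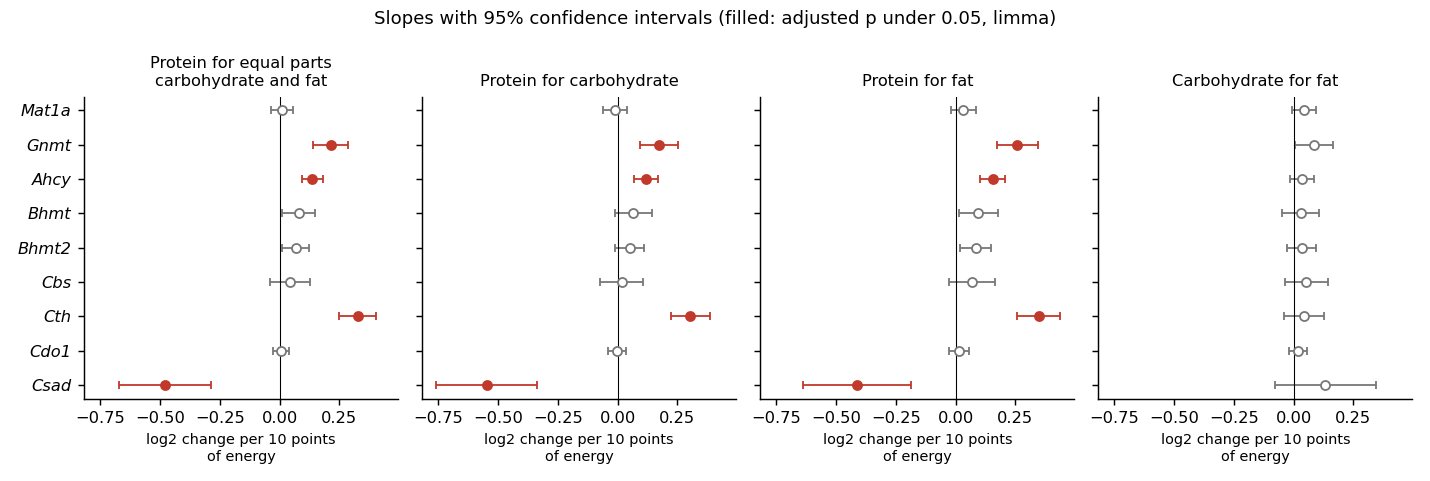
Slopes of the 9 genes with 95% confidence intervals (log2 change per 10 points of energy) for protein in place of equal parts of carbohydrate and fat, of carbohydrate, and of fat, and for carbohydrate in place of fat. Gnmt, Ahcy and Cth lie to the right and Csad to the left of 0 in the first 3 panels, filled where the limma adjusted p was under 0.05, and no point is filled in the last.

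The exchange of carbohydrate against fat was compared as the log2 change for 10 points moved from fat to carbohydrate. No gene of the 9 passed, and 0 of 16926 genes did in limma; 665 genes, Gnmt among them, had an unadjusted p under 0.05. The slope of Gnmt was 0.09 ± 0.04 (SE; limma adjusted p = 0.999, 0.036 before adjustment), and that of Csad was 0.13 ± 0.10 (SE; limma adjusted p = 0.999), the largest of the 9. All 9 slopes were above 0 in the fit to 48 mice; without the mice at 5% protein those of Gnmt (-0.00031) and Ahcy (-0.02) were below it.

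Within 5% protein, where carbohydrate spanned its widest range, the means of Gnmt and Ahcy stood in the order of the carbohydrate share. Single mice on 5/20/75 and 5/48/48 overlapped for both genes. Gnmt was 10.10 and 10.08 on 5/20/75, 10.77, 10.94, 10.31 and 10.08 on 5/48/48, and 11.28, 11.39, 11.05 and 10.97 on 5/75/20. All 4 mice on 5/75/20 lay above the other 6. Ahcy was 7.96 and 7.97 on 5/20/75, 7.84, 8.13, 7.89 and 8.11 on 5/48/48, and 8.64, 8.56, 8.33 and 8.31 on 5/75/20, again with the 4 mice on 5/75/20 above the other 6. These values were picked out after they were seen and carry no test of their own.

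At 33% protein the order was not the same. Gnmt had a mean of 11.76 on 20% carbohydrate and 11.59 on 47%, and Ahcy had 8.73 and 8.53. The product of the protein share and the exchange tests this difference in slope. Its coefficient was -0.07 ± 0.02 for Ahcy (SE; limma adjusted p = 0.967, 0.00288 before adjustment) and -0.08 ± 0.04 for Gnmt (SE; limma adjusted p = 0.967, 0.0297 before adjustment). No gene of the 16926 passed, and 652 had an unadjusted p under 0.05, so the difference did not hold after adjustment.

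**Figure D5:**
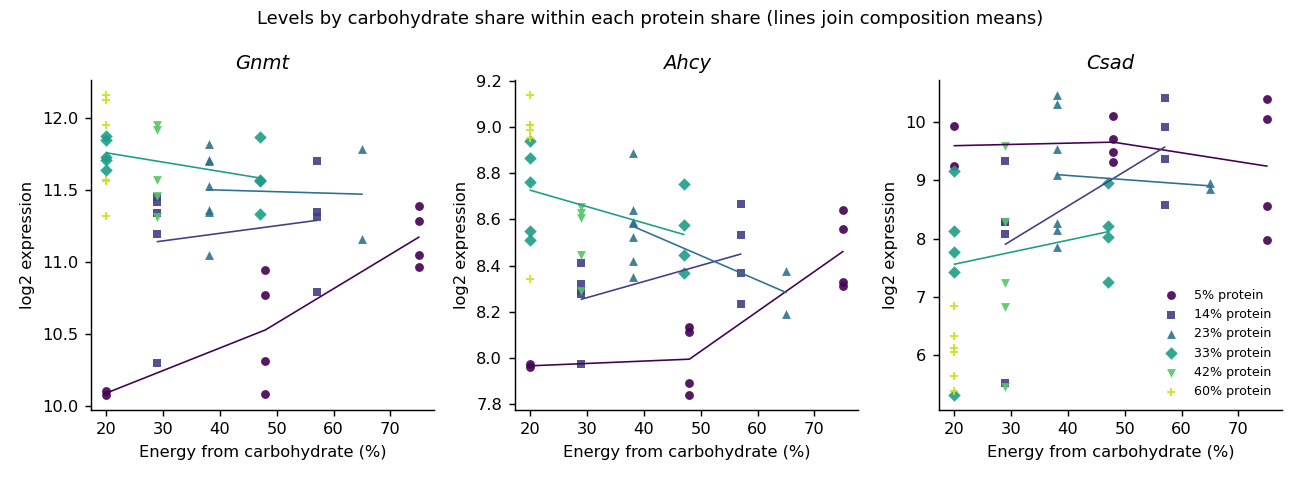
Log2 expression of Gnmt, Ahcy and Csad in each of 48 mice against the percent of energy from carbohydrate, with marker and colour for the protein share and lines that join the means of diet compositions of the same protein share. At 5% protein the Gnmt means rise with carbohydrate from 10.09 to 11.17. At 33%, with high and medium energy mice pooled, they go from 11.76 to 11.59. The Csad points at one composition spread over several log2 units.

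Energy level was compared between high and medium, adjusted for composition, and between low and high at 60/20/20 with 3 mice each. No gene of the 9 passed either comparison, and 0 of 16926 genes did; limma gave an unadjusted p under 0.05 to 1376 genes for high against medium and to 1710 for low against high, none of the 9 among them. The largest difference was that of Csad, 0.56 ± 0.33 for high minus medium (SE; limma adjusted p = 0.692). At 23/38/38 Csad was 10.32, 9.54 and 10.47 on high and 8.27, 7.85 and 8.14 on medium energy, with the low energy mouse at 9.09. The 3 high energy mice lay above the 3 medium energy mice there, yet at 14/57/29 the values of 10.42 and 9.36 on high and 8.57 and 9.92 on medium energy overlapped. Without the medium energy 14/29/57 mouse, which had a Csad value of 5.52 against 8.09 to 9.33 in the 4 high energy mice of its composition, the difference was 0.31 ± 0.31 (SE; limma adjusted p = 0.999).

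At 60/20/20 the difference for low minus high energy was -0.69 ± 0.62 for Csad (SE; limma adjusted p = 0.709), with a 95% confidence interval from -1.96 to 0.57. For Cth it was -0.01 ± 0.31 (SE; limma adjusted p = 0.993), with an interval from -0.63 to 0.61. These intervals are wide, and changes well over the protein slope for 10 points lie within them.

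The shape of the protein response was examined with a squared term and with a model of 1 mean per protein share. No gene of the 9 passed for curvature, where limma called 8 genes, or 0.0473%. Gnmt came nearest at -0.06 ± 0.02 (SE; limma adjusted p = 0.0888), a gradient less steep at larger shares. Cth had -0.05 ± 0.02 (SE; limma adjusted p = 0.179) and Csad -0.08 ± 0.05 (SE; adjusted p = 0.355). Of 45 tests between neighbouring protein shares, 5 for each of the 9 genes, none passed. From 5% to 14% protein, where 0.372% of all genes passed, Gnmt differed by 0.61 ± 0.16 (SE; limma adjusted p = 0.0924) and Bhmt2 by 0.45 ± 0.13 (SE; adjusted p = 0.144). The Gnmt curvature was called in 3 other settings, in which the share of all genes called was larger too: with array weights (2.39%), with the Y-linked minus Xist value as a term (4.55%) and on high energy diets alone (8.57%, where Mat1a was also called). It was also called without 1 high energy 33/47/20 mouse (-0.07, limma adjusted p = 0.0383).

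Other genes of sulfur and methyl metabolism were examined as a list, of which 33 were tested; Mat2a, Amd1 and Sms were not analysed here. Along the protein share 7 rose and 1 fell, with the same 3.37% and 3.65% of all genes as above for comparison; their median slope was 0.02. Nnmt, which methylates nicotinamide with S-adenosylmethionine, rose by 0.77 ± 0.11 (SE; limma adjusted p = 1.11e-05). On the route from choline to glycine, the betaine aldehyde dehydrogenase Aldh7a1 (0.15, limma adjusted p = 0.0038) and dimethylglycine dehydrogenase (Dmgdh, 0.15, adjusted p = 0.00302) rose. Chdh (-0.13, adjusted p = 0.116) and Sardh (0.07, adjusted p = 0.390) of the same route did not pass.

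Sulfide and sulfite oxidation gave 3 of 5: the persulfide dioxygenase Ethe1 (0.15, limma adjusted p = 0.00706), the sulfurtransferase Tst (0.13, adjusted p = 0.0194) and sulfite oxidase (Suox, 0.12, adjusted p = 0.0399), while Sqor (0.07, adjusted p = 0.0651) and Mpst (0.07, adjusted p = 0.161) did not pass. Of the 7 genes tested on taurine formation, transport and use, 1 rose and 1 fell. The aspartate aminotransferase Got1, which can also divert cysteine sulfinate from taurine, rose by 0.25 ± 0.05 (SE; limma adjusted p = 0.00063). The transporter Slc6a13 fell by 0.11 ± 0.03 (SE; limma adjusted p = 0.049). Ado, which makes hypotaurine from cysteamine, had -0.13 (adjusted p = 0.126), and Baat, which conjugates bile acids, had 0.13 (adjusted p = 0.0820). The taurine transporter Slc6a6 (-0.10, adjusted p = 0.204), Gadl1 (0.05, adjusted p = 0.188) and Fmo1 (-2.5e-05, adjusted p = 0.9996) did not pass. None of the glutathione synthesis genes Gclc, Gclm and Gss passed, with slopes from -0.06 to -0.05, and neither did Mtr, Mtrr, Mat2b, Ahcyl1, Ahcyl2, Pemt or Gamt, or any of the 6 polyamine and methionine salvage genes tested.

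The calls of Slc6a13 and Suox were fragile. Slc6a13 was called in 12 of 48 fits that left out a mouse and Suox in 37 of 48, while the other 6 were called in all 48. With the interquartile range as a term 4 rose (Dmgdh, Ethe1, Got1 and Nnmt) and 0 fell, where 0.668% of all genes passed. Without the mice at 5% protein Nnmt alone of the list passed (0.46, limma adjusted p = 0.0323, with 0.0827% of all genes called). Without the medium energy 14/29/57 mouse 7 rose and 3 fell, with Chdh and Gclm added, where 7.62% of all genes passed.

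The genes whose log2 values followed Cth most closely over the 48 mice, by Pearson's r, were Gpt (0.89), an alanine aminotransferase, Fh1 (0.88) and Sdhb (0.88) of the citric acid cycle, Gnmt (0.87), and Acmsd (0.87) of tryptophan breakdown. Each of them had a positive protein slope, from 0.18 for Sdhb to 0.52 for Acmsd. Those closest to Csad were Hspb1 (0.74), Serinc2 (0.74), Ephx1 (0.72), Aox1 (0.72) and Slc17a8 (0.70). Serinc2 (-0.31), Ephx1 (-0.17) and Slc17a8 (-0.56) also fell with protein, while Hspb1 (-0.09, limma adjusted p = 0.269) and Aox1 (-0.12, adjusted p = 0.233) did not pass. These r values share the diets and the arrays and are a description.

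The diet model has straight-line terms for the shares, so its residuals still hold differences between diets that a line misses. These residuals were compared over 36 pairs of the 9 genes, with 100000 permutations each and Benjamini-Hochberg adjustment over the 36. Of these, 12 pairs had an adjusted p under 0.05 for r, all positive, and 6 had one for rho. Cth and Gnmt were the closest, with r = 0.76 and rho = 0.74 (permutation p = 1e-05 for each, the smallest these permutations can give, adjusted p = 9e-05 for r, n = 48). Without the 2 mice farthest from the median of Cth r was 0.72, and it was 0.75 among mice numbered under 300 (n = 34) and 0.75 among those over 300 (n = 14). Mice numbered over 300 were 3 of 10 at 5% protein, 3 of 9 at 14% and 3 of 9 at 23%. They were 4 of 9 at 33%, 1 of 5 at 42% and 0 of 6 at 60%, so the split is uneven across protein shares. Gnmt and Ahcy had r = 0.64 and rho = 0.63 (permutation p = 1e-05 and 2e-05, adjusted p = 9e-05 for r), with 0.63 without 2 mice, 0.70 under 300 and 0.48 over 300.

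For Csad no pair passed in these residuals. Its 8 coefficients with the other genes ran from -0.12 with Bhmt to 0.33 with Cbs; the coefficient with Cth was 0.02 (rho 0.04, permutation p = 0.885 and 0.783, adjusted p = 0.935). Cbs and Mat1a had r = 0.68 and rho = 0.58 (permutation p = 1e-05 and 3e-05, adjusted p = 9e-05 for r), which was 0.41 without the 2 mice farthest from the median of Cbs, the medium energy 14/29/57 mouse among them, and 0.70 under 300 and 0.62 over 300. Cbs and Bhmt2 (r = 0.52, rho = 0.28, permutation p = 0.00077 and 0.0535, adjusted p = 0.00396 and 0.160) fell to r = 0.28 without 2 mice. The interquartile range moved with Cth and Gnmt in the fit that held it, at -1.06 ± 0.24 and -1.22 ± 0.21 per log2 unit (SE; limma adjusted p = 0.000327 and 6.42e-06), as it did for 54.5% of all genes. With it as a term, 19 pairs passed for r and 7 for rho, and Cth with Gnmt had r = 0.63 (rho 0.51, permutation p = 1e-05 and 0.00028, adjusted p = 0.00018 for r). Cbs with Csad then passed for r alone (r = 0.36, rho = 0.0078, permutation p = 0.0226 and 0.958, adjusted p = 0.0427 and 0.985), and r was -0.08 without 2 mice.

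The markers of other cell types were examined beside these results. Of 20 tested markers outside hepatocytes, 1, of stellate cells, passed along the protein share, and 0 of 5 hepatocyte markers did, where 7.01% of all genes passed. Gene means lay between 1.71 and 5.13 for cholangiocyte, 5.24 and 7.65 for macrophage, 5.72 and 8.59 for endothelial, 3.91 and 7.40 for stellate and 1.43 and 3.68 for lymphocyte markers; these come from different probe sets and are not set against each other. The median protein slopes of the lists were -0.02 for cholangiocytes, -0.12 for macrophages, -0.07 for endothelial cells, -0.10 for stellate cells and -0.10 for lymphocytes. The mean of the macrophage list ran from 5.16 to 7.27 among mice at 5% protein and from 5.25 to 6.58 at 60%. The stellate list ran from 5.45 to 6.79 at 5% and from 4.75 to 5.64 at 60%. For lymphocytes the range was 2.26 to 3.86 at 5% and 2.04 to 2.66 at 60%. It was 6.37 to 7.47 and 6.36 to 6.85 for endothelial cells, and 2.64 to 3.49 and 2.75 to 3.34 for cholangiocytes. These differences between list means were not tested. In whole liver, fewer cells of a type and less RNA per cell cannot be told apart, and the part of other cell types in the slopes of the 9 genes was not tested. With the Y-linked minus Xist value as a term, limma called the same 4 genes along protein, and of all genes 6.39%; that term itself was called for 1 gene of the 9, Cdo1 (-0.01 per log2 unit, limma adjusted p = 0.0478), and for 5.66% of all genes.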

How the data were processed

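RNA of 48 mouse livers, extracted with a Qiagen AllPrep kit, was hybridised as biotinylated cRNA to Affymetrix arrays, per the labels' protocols. The values deposited by the authors were read as log2 expression from their range (-0.51 to 13.42); software, normalization and genome build are not given in the sources used here. Each of 41345 probe sets had 1 value per array, and array medians ran from 1.57 to 1.86. The platform annotation gave 23521 probe sets 1 symbol, 1814 several and 16010 none; 23328 of the single symbols matched RefSeq. A gene was its brightest single-symbol probe set, and those brighter on average than 1.17, the 30th percentile of the probe set means, were tested. Precision is limited by the number of arrays.

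limma 3.58.1 in R 4.3.3 (lmFit, eBayes with a trend) was fitted to all 48 mice with terms for energy level, for the protein share and for carbohydrate against fat. Low against high energy used 1 mean for each of the 20 combinations. All tests were two-sided; p-values were adjusted by the Benjamini-Hochberg method over 16926 genes and called under 0.05. Correlations used SciPy 1.17.1. The scripts were tested on simulated data. The 9 genes, the gene lists and the tests were chosen with earlier results of these data known. Named genes are the 9, the pathway genes past the threshold along protein, the 5 genes most correlated with Cth and with Csad, and others where a count or list is spelled out after the values were seen. Alternatives changed the filter, the probe set, the normalization (quantile, median centring), array weights or the mice used, or added a term for array range, Y-linked minus Xist value, mouse number over 300 or a diet combination block.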

Additional observations from a re-analysis of the deposited data

Results flagged for a closer look

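Within each protein share and each combination of 4 to 10 mice, the highest and lowest mouse was compared with the others by Dixon's test. Its nominal rate of about 1 in 20 holds for separate groups of like mice. Here groups share mice, and the protein shares pool diets. The test picked out 8 of 81 groups, a count that was not set against that rate. The medium energy 14/29/57 mouse gave 4 of them as the lowest at 14% protein, with Cbs at 7.81, Mat1a at 11.45, Bhmt2 at 7.80 and Csad at 5.52. It was the only mouse of its combination.

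The other 4 came from different mice. Ahcy was 8.34 in a low energy 60/20/20 mouse, the lowest at 60% protein, and Bhmt2 was 9.01 in a high energy 5/75/20 mouse, the highest of its combination. Csad was 9.33 in a high energy 14/29/57 mouse, the highest of its combination, and 5.32 in a medium energy 33/20/47 mouse, the lowest at 33% protein. The same 33/20/47 mouse had a Cth value of 11.36.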

How the results depend on the processing

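No paired analysis was possible because the labels give no replicate numbers that groups share. Signs and calls of Cth, Gnmt, Ahcy and Csad along protein were kept under 16 of 17 other settings; without the mice at 5% protein 1 gene was called in place of 4, and Csad (-0.53) missed the threshold. For protein in place of carbohydrate, 2 genes were called with the interquartile range as a term (0.154% of all genes) and 2 with that and the Y-linked minus Xist value (0.171%), 1 without the 12 arrays of smallest range (0.189%) and 1 without the mice at 5% protein (0.0118%); for fat, the last setting left 1 (0.0295%). Of the calls for carbohydrate, that of Gnmt was lost in 6 of 16 settings, that of Ahcy in 4 and that of Csad in 2, and for fat that of Csad in 4; Gnmt for carbohydrate had 0.18 (limma adjusted p = 0.0593) on high energy diets alone. Curvature was called for 1 gene with array weights (2.39% of all genes), 1 with the Y-linked minus Xist value (4.55%) and 2 on high energy diets alone (8.57%), against 0 (0.0473%), and that of Mat1a turned from 0.018 to -0.0145 without the mice at 5% protein. The cause of these changes was not tested. Leaving out each mouse gave slopes from 0.31 to 0.35 for Cth and -0.53 to -0.43 for Csad, 4 genes called along protein, and 0 or 1 for curvature. The slopes on the logarithm of protein are per doubling. Depth is unknown for arrays, and the dim Bhmt probe set limits that gene.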
